A study of Mus musculus with 6 samples.

Results

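The DNAJ (HSP40) family was examined in endothelial cells (ECs) from the lungs of wild-type (WT) mice and of mice lacking leene, the mouse counterpart of the human long noncoding RNA gene LEENE (LINC00520). Members were all genes in the count tables whose symbol begins with Dnaja, Dnajb or Dnajc and a number, pseudogenes aside, with at least 60 read counts summed over the 6 libraries. Of 47729 genes in the tables, 45 carried such a symbol and 39 met the minimum, namely 4 of subfamily A, 10 of subfamily B and 25 of subfamily C. The genes Dnajb3, Dnajc5b, Dnajc22, Dnajc5g, Dnajb7 and Dnajb8 stayed under it, with 54 summed counts for Dnajb3, the nearest, and 0 for Dnajb7 and Dnajb8. Dnajc6, with 219 summed counts, and Dnajb13, with 356, were the members closest above the minimum. All 39 members also passed the filter on low counts that precedes the test.

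There were 3 WT and 3 KO libraries of poly(A) RNA. Mice of both genotypes were males aged 14 weeks on normal chow, and every one of them had received angiotensin II (AngII) at 1000 ng/kg/min from an implanted pump over 2 weeks, so no library shows cells without AngII. The KO mice carry a deletion, made with CRISPR-Cas9 in all cells of the body, of the genomic segment that corresponds to LINC00520, and the WT mice were their littermates. The labels call the cells CD31-enriched, whereas the methods of the study describe magnetic sorting on CD144. The labels also describe pooling of cells from 3 mice per group, so it cannot be told whether a library stands for 1 mouse, and the p-values then measure only the spread between these libraries. The deleted noncoding genes were not analysed here.

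J proteins hand unfolded or newly made proteins to HSP70 and trigger ATP hydrolysis by HSP70 through their J domain, which locks HSP70 onto its client. Subfamily A keeps the layout of the bacterial founder with a zinc-binding region, subfamily B has the J domain and a glycine-rich linker without the zinc-binding region, and subfamily C shares little beyond the J domain. Each compartment has its own set: the cytosolic members work with HSC70 (Hspa8) and the stress-induced HSP70s, those in the lumen of the endoplasmic reticulum (ER) with BiP (Hspa5), and those in mitochondria with mortalin (Hspa9). Many J proteins also hold to 1 narrow task, such as splicing, ribosome assembly or the uncoating of clathrin vesicles.

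Transcription of heat-shock genes is driven by HSF1 at heat-shock elements, which are inverted repeats of the unit GAA, and that of ER chaperones in part at the ER stress element. RefSeq promoter windows of the GRCm38.p6 build, from 250 bases before to 50 after each transcription start, were at hand for 33 of the 39 members and were searched on both strands for GAANNTTCNNGAA and for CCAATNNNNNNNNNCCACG. The first was found in 1 member, Dnajb6, against 0.662% of 27025 genes, and the second in 1 member, Dnajc3, against 0.137%. The shorter pairs of units, GAANNTTC and TTCNNGAA, were added after the windows had been seen. GAANNTTC was present in 4 of the 33 members (12.1%), Dnaja1, Dnaja4, Dnajb6 and Dnajc27, against 9.04% of all genes, and TTCNNGAA in 3 (9.09%), Dnajb4, Dnajb6 and Dnajc10, against 9.6%. In Dnajb6 the longer element contains both pairs, which overlap. Every match is shown here, with the start of Dnajb1, the classic heat-inducible member, for contrast, since its windows held none. For Dnajb6 the longer element stands for the pairs within it. Capitals mark the matched letters, and each sequence is read 5′ to 3′ on the strand of its gene.
Dnaja1, chr4:40722333-40722362, plus strand, match at positions -124 to -117 from the start: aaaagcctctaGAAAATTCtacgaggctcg
Dnaja4, chr9:54699458-54699487, plus strand, match at -90 to -83: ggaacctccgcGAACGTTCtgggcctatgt
Dnaja4, chr9:54699496-54699525, plus strand, match at -52 to -45: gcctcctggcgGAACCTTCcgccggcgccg
Dnajb4, chr3:152193846-152193875, minus strand, match at -14 to -7: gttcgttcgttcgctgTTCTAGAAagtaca
Dnajb6, chr5:29735844-29735873, plus strand, match at -46 to -34: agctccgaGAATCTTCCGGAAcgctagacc
Dnajc10, chr2:80315273-80315302, plus strand, match at -182 to -175: aacaattttatTTCTAGAAaactttaatta
Dnajc27, chr12:4082350-4082379, plus strand, match at -213 to -206: cacccatcggtGAAGATTCcaggaaaaaaa
Dnajc3, chr14:118937822-118937851, plus strand, match at -105 to -87: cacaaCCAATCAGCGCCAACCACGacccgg
Dnajb1, chr8:83608075-83608174, plus strand, positions -100 to -1, no match: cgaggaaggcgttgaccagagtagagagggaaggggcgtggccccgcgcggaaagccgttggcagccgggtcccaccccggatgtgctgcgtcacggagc
The stretches shown for Dnaja1 and Dnajb6 and the second of Dnaja4 overlap annotated exons, counted for any gene on either strand. The remaining ones lie outside annotated exons. A match is a stretch of letters only, and the absence of one says no more than that these letters are not in the window.

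The libraries held between 24464324 and 35184063 counts, of which mitochondrial genes took 37.4 to 54.5% and the 39 members together 0.0963 to 0.138%. Levels are given as CPM, the counts of a gene relative to the library total, after scaling by the trimmed mean of M values (TMM), and levels of different genes were compared only as CPM per kilobase of exon. The preparations held more than ECs. The 6 markers of alveolar type II cells, the surfactant-making cells of the lung epithelium, none of which was at 0, summed to 5274, 49927 and 15389 CPM in WT 1, 2 and 3 and to 39361, 47889 and 38795 CPM in KO 1, 2 and 3. The 10 EC markers, which were all detected, summed to 1719 to 3139 CPM in WT and to 2062 to 3297 CPM in KO. In such bulk libraries fewer cells of a type and less RNA per cell cannot be told apart.

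Per length of exon, the splicing-associated nuclear J protein Dnajc8 had the highest level in the family, at 36.9 CPM per kb in WT and 37.2 in KO. Its libraries held 100.7, 75.6 and 106.9 CPM in WT and 105.6, 85.4 and 94.2 CPM in KO, so the groups overlapped. It was followed by Dnajc3 (mean over both groups 23.2 CPM per kb), an ER lumen member also known as P58IPK, by Dnaja2 (22.3), a general cytosolic J protein, and by Dnajb11 (20.6), the ER lumen member ERdj3. Neighbours in this order overlapped from Dnajc3 to Dnajb11, where the WT libraries of the ER members alone ranged more widely than the gaps between them, and in WT 2 Dnajc3 was as high as Dnajc8. By this measure Dnaja2 stood well above the other A members, of which Dnaja4 reached 7.01 CPM per kb. The lowest level belonged to auxilin (Dnajc6), which strips clathrin from vesicles, at 0.21 CPM per kb. The exon length of every member joins the exons of all its transcripts, so the order depends on these lengths and is rough. For Dnaja1 the length is 8629 bases, against 2839 for Dnaja2, so its mean of 4.33 CPM per kb is a low estimate. Before division by length the WT means were 53.4 CPM for Dnaja1 and 65.5 CPM for Dnaja2.

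**Figure D1:**
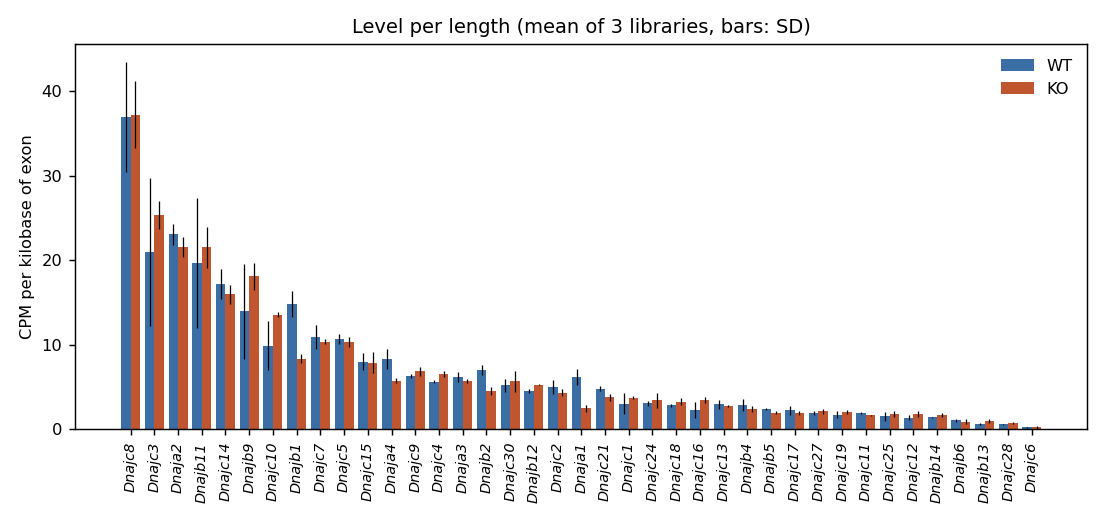
Mean CPM per kilobase of exon (vertical axis) in 3 WT and 3 KO libraries for each of the 39 DNAJ members, ordered by level, with the SD as error bars. Dnajc8 leads in both groups at 36.9 and 37.2, and the ER members Dnajc3, Dnajb11 and Dnajb9 show wide WT bars.

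Comparison of KO with WT asked how the loss of leene altered the family under AngII. None of the 39 members passed an adjusted p of 0.05 in either direction in the quasi-likelihood test of edgeR, with Benjamini-Hochberg adjustment over all 14625 genes tested. Over all of those genes 11 were called lower (0.0752%) and 5 higher (0.0342%) in KO. At an unadjusted p of 0.05, 5 members were lower and 0 higher, against 4.68% and 5.62% of all genes. The 5 were Dnaja1, Dnajb1, Dnajb2, Dnaja4 and Dnajc21, and each of them works in the cytosol or nucleus. In the GRCm38 coordinates of the count tables they lie at chr4:40722150-40737149, chr8:83608175-83611902, chr1:75236406-75245692, chr9:54698873-54716315 and chr15:10446756-10470516. DESeq2, the tool named by the study, called 3 members lower and 0 higher at its adjusted p of 0.05, namely Dnaja1, Dnajb1 and Dnajb2, where 0.64% of 15470 genes were called lower and 0.569% higher. For 8 members every KO library lay below every WT library (9.2% of all genes) and for 6 every KO library lay above (8.59%). Scaling by total counts gave 6 and 1 members, the 1 above being Dnajb13, and shares over all genes were not counted for that scaling.

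Dnaja1 (HDJ2), the general class A cochaperone of cytosolic HSC70, had the largest difference. Its CPM were 48.3, 49.3 and 62.7 in WT 1, 2 and 3 and 25.3, 18.3 and 20.5 in KO 1, 2 and 3. The lowest WT library was thus nearly double the highest KO library. The WT mean of 53.4 ± 8.01 (SD, n = 3) was 2.504 times the KO mean of 21.3 ± 3.58, the log2 fold change was -1.32 (SE 0.17), and the adjusted p was 0.0524 with edgeR and 1.48e-07 with DESeq2. Across the other tools, scalings and filters and the fits without 1 library the log2 fold change stayed between -1.49 and -1.21, and the adjusted p ranged from 1.48e-07 to 0.363.

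Dnajb1 (HDJ1), the heat-inducible class B partner of cytosolic HSP70, measured 34.9, 36.03 and 29.7 CPM in the WT libraries and 19.3, 17.4 and 19.8 CPM in the KO libraries. The groups were well apart, at means of 33.5 ± 3.39 and 18.9 ± 1.27 CPM (SD, n = 3). The log2 fold change was -0.83 (SE 0.13), with an adjusted p of 0.0954 by edgeR and 0.000534 by DESeq2. Dnajb2 (HSJ1), a J protein that binds ubiquitin and steers clients to the proteasome, measured 31.8, 30.2 and 26.8 CPM in WT and 17.2, 19.2 and 21.01 CPM in KO. The groups did not overlap. Its log2 fold change was -0.63 (SE 0.13), with an adjusted p of 0.249 by edgeR and 0.042 by DESeq2.

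Dnaja4, a cytosolic class A member close in sequence to Dnaja1, measured 28.7, 34.4 and 26.0 CPM in WT and 19.9, 21.7 and 20.2 CPM in KO. The KO libraries lay close together and below all WT libraries. Its log2 fold change was -0.53 (SE 0.14), with an adjusted p of 0.307 by edgeR. Dnajc21, which serves the maturation of the large ribosomal subunit, had a smaller gap, with 24.1, 21.2 and 23.6 CPM in WT against 16.03, 20.01 and 17.9 CPM in KO. The log2 fold change was -0.36 (SE 0.14) and the adjusted p by edgeR was 0.457. Of these 5 genes Dnaja1 and Dnaja4 hold a match printed above, and no match was found in the windows of Dnajb1, Dnajb2 and Dnajc21.

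**Figure D2:**
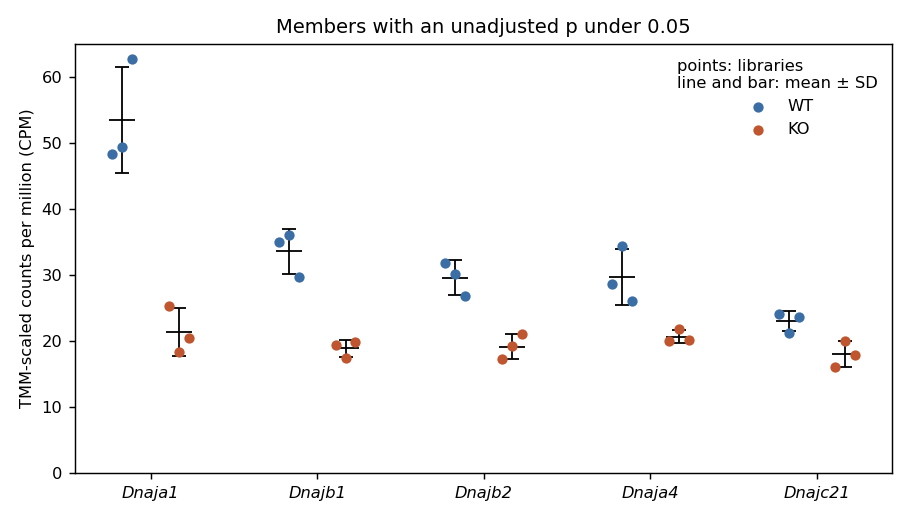
TMM-scaled CPM (vertical axis) of the 5 members with an unadjusted p under 0.05, with 1 point per library (3 WT, 3 KO) and the mean ± SD as line and bar. In each gene all KO points lie below all WT points, with the widest gap in Dnaja1, 48.3 to 62.7 against 18.3 to 25.3 CPM.

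Subfamily A was the one whose members all had a log2 fold change below 0, 4 of 4, with a median of -0.32 against 0.03 over all genes tested. Its summed level was 170 to 175 CPM in the WT libraries and 125 to 127 CPM in the KO libraries. Dnaja1 supplied 67.7% of the difference between the group means and Dnaja4 19.1%. Dnaja2, the most abundant A member per length, measured 69.5, 63.4 and 63.5 CPM in WT and 57.4, 63.2 and 63.02 CPM in KO, nearly touching groups with a log2 fold change of -0.10 (SE 0.12). The mitochondrial A member Dnaja3 (TID1) was at 23.0 to 26.8 CPM in WT and 21.5 to 23.6 CPM in KO, so its groups overlapped.

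Subfamily B was divided, with 5 members below and 5 above 0 and a median of -0.04. In the main fit the signs followed the compartment. All 5 cytosolic B members had a log2 fold change below 0, from -0.83 for Dnajb1 to -0.22 for Dnajb6, an inhibitor of protein aggregation, and the 4 ER members of this subfamily lay between 0.13 and 0.37. The signs of the ER members were not all stable. Without WT 1, 6 B members lay below and 4 above 0, with Dnajb11 at -0.13. With the alveolar type II markers as a covariate, described below, 7 lay below and 3 above 0, with Dnajb9 at -0.04 and Dnajb11 at -0.28. Subfamily C had 9 members below and 16 above 0 and a median of 0.12, which was -0.06 when libraries were scaled by total counts. That scaling moved the median of all genes by -0.17, to -0.13, and the median of all 39 members from 0.05 to -0.11, with 24 below and 15 above 0 in place of 18 and 21. Among the 8 cytosolic and nuclear C members, 4 lay below and 4 above 0.

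Compartments were assigned from general knowledge of the proteins, not from these data, and the side of the ER membrane on which some J domains lie is uncertain, as for Dnajc16. Cytosolic and nuclear members numbered 16. Of these 12 had a log2 fold change below 0, with a median of -0.22, 5 had an unadjusted p under 0.05 and 7 had every KO library below every WT library. The 7 comprised the 5 described above, Dnaja2, and Dnajb5, a relative of Dnajb1, at 14.0 to 14.8 CPM in WT and 10.3 to 12.5 CPM in KO (log2 fold change -0.30, SE 0.14, edgeR adjusted p 0.498). With scaling by total counts the groups of Dnaja2 and Dnajb5 overlapped, and those of Dnaja2 also did with RLE scaling. The 16 members summed to 479, 439 and 505 CPM in WT 1, 2 and 3 and to 388, 379 and 396 CPM in KO 1, 2 and 3. The remaining 11 members, without those with an unadjusted p under 0.05, summed to 268 to 336 CPM in WT and 283 to 297 CPM in KO, so that their groups overlapped. Most of the difference in the cytosolic sum lay in those 5 genes, which were picked by their difference in these same data.

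Several cytosolic and nuclear members with specialised work had overlapping groups, which does not show that their levels were equal. Dnajc8 had a log2 fold change of 0.01 (SE 0.17). Dnajc7 (TPR2), which passes clients between HSP70 and HSP90, was at 46.2 to 60.5 CPM in WT and 49.3 to 52.3 CPM in KO. For the histone chaperone Dnajc9 the log2 fold change was 0.12 (SE 0.14), and for Dnajc24, which takes part in making diphthamide on elongation factor EF2, 0.16 (SE 0.25). The ribosome-bound member Dnajc2 (MPP11) was at -0.20 (SE 0.16), and with scaling by total counts every KO library lay below every WT library. Overlapping groups were also found for Dnajb4 (HLJ1), a relative of Dnajb1, at -0.27 (SE 0.20), and for the nuclear member Dnajc17, at -0.23 (SE 0.27). Dnajc12 had the highest fold change of the compartment, 0.39 (SE 0.24), at 3.02 to 4.45 CPM in WT and 4.24 to 6.14 CPM in KO, and its groups overlapped.

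**Figure D3:**
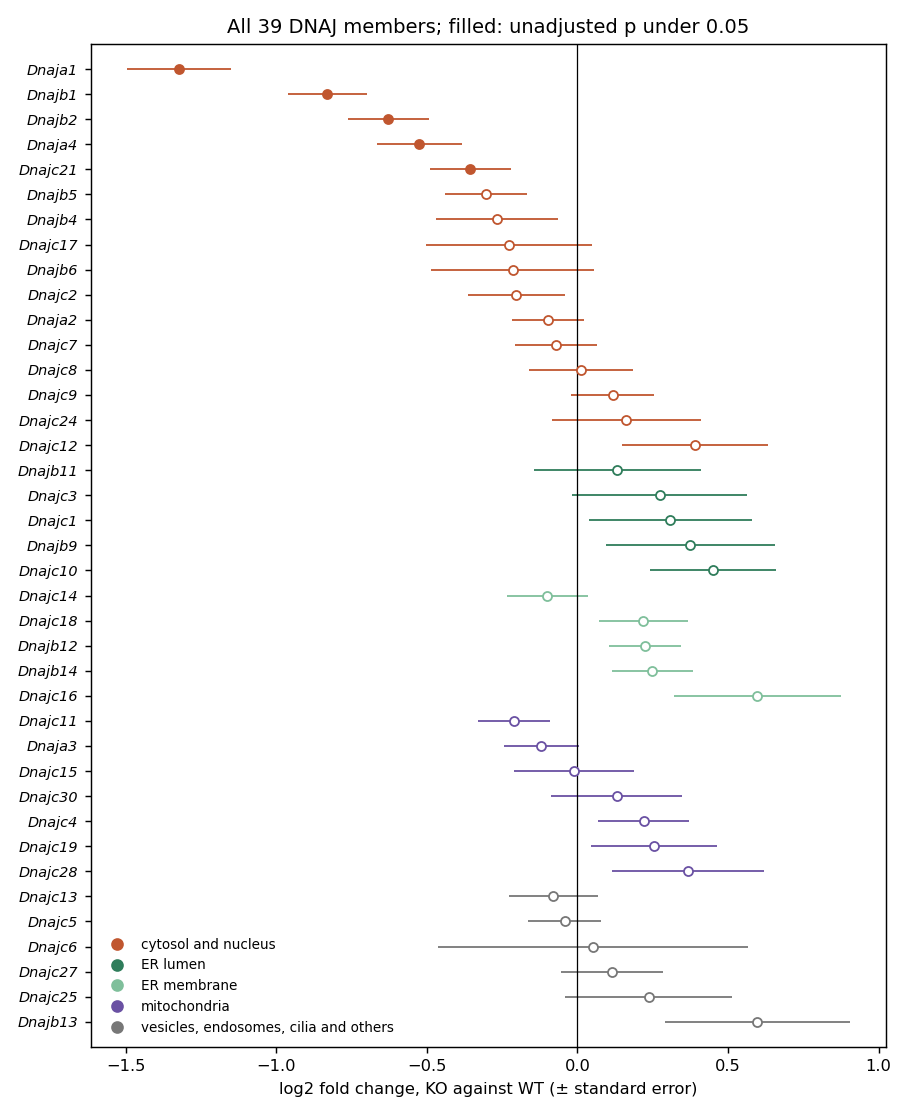
Log2 fold change of KO against WT (horizontal axis, with the standard error) for the 39 members, ordered within compartments, with filled points for an unadjusted p under 0.05. The 5 filled points, from -1.32 to -0.36, are all cytosolic or nuclear, and 9 of 10 ER members lie to the right of 0.

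The 10 ER members lay on the other side, with 9 above 0, a median of 0.26 and 0 with an unadjusted p under 0.05. The KO libraries lay wholly above the WT libraries in 3 of them, Dnajc10, Dnajb12 and Dnajb14. The ratio of the summed ER level to the summed cytosolic level was 0.653, 1.22 and 0.827 in WT 1, 2 and 3 and 1.27, 1.36 and 1.21 in KO 1, 2 and 3. WT 2 thus fell within the KO range, and WT 1 and WT 3 lay under it.

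The 5 ER lumen members shared a wide spread among the WT libraries. Dnajc3, which holds misfolded clients for BiP, measured 64.9, 155.9 and 105.8 CPM in WT and 131.9, 140.2 and 122.6 CPM in KO. WT 2 was above every KO library and WT 1 far below them. Its log2 fold change was 0.27 (SE 0.29), between 0.0015 and 0.59 when 1 library was left out. Dnajb11, the soluble partner of BiP that binds nascent secretory proteins, measured 38.8, 88.5 and 63.3 CPM in WT and 63.5, 78.3 and 67.1 CPM in KO. Its groups overlapped, and the log2 fold change of 0.13 (SE 0.28) changed sign with the libraries used, to -0.13 without WT 1 and 0.42 without WT 2.

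Dnajb9 (ERdj4), a target of the unfolded protein response that restrains IRE1, measured 15.4, 36.3 and 26.4 CPM in WT and 30.9, 36.7 and 33.6 CPM in KO. Here too WT 2 sat among the KO libraries. The log2 fold change was 0.37 (SE 0.28), 0.098 without WT 1 and 0.66 without WT 2. Dnajc10 (ERdj5), a disulfide reductase of ER-associated degradation, measured 35.5, 64.5 and 48.7 CPM in WT and 67.8, 69.1 and 66.2 CPM in KO. It was the lumen member whose groups did not overlap, although WT 2 came close and the groups overlapped with scaling by total counts. The log2 fold change was 0.45 (SE 0.21), with an adjusted p of 0.507 by edgeR, and in Dnajc1 (ERdj1), which binds ribosomes at the ER, it was 0.31 (SE 0.27), 0.051 without WT 1 and 0.62 without WT 2.

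In all 5 ER lumen members the WT libraries stood in the order WT 1, WT 3, WT 2 from low to high. This order, noticed in the data, was found in 25.0% of all genes tested, in 8 of the 39 members and in 0 of the 16 cytosolic ones. The alveolar type II markers had the same order, 5274, 15389 and 49927 CPM, and so did the summed level of 3 club cell markers, at 15349, 19910 and 40401 CPM. The coefficient of variation of the lumen members was 29.3 to 41.8% in WT and 2.14 to 11.1% in KO. With the mean log2 level of the type II markers as a covariate, a fit added after the data had been seen, 1 of the 5 lumen members lay above 0 and the median was -0.10, compared with 5 of 5 and 0.31 without the covariate. The median of the 10 ER members went from 0.26 to 0.07, that of the 16 cytosolic ones from -0.22 to -0.16, and Dnaja1 had a log2 fold change of -1.32 with an adjusted p of 0.0326 by edgeR. The covariate itself has the WT order of the lumen members, so a shift of their fold changes was built into this fit. Type II cells, club cells and anything else that shares the order cannot be told apart here. Their part in the lumen values was not tested.

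**Figure D4:**
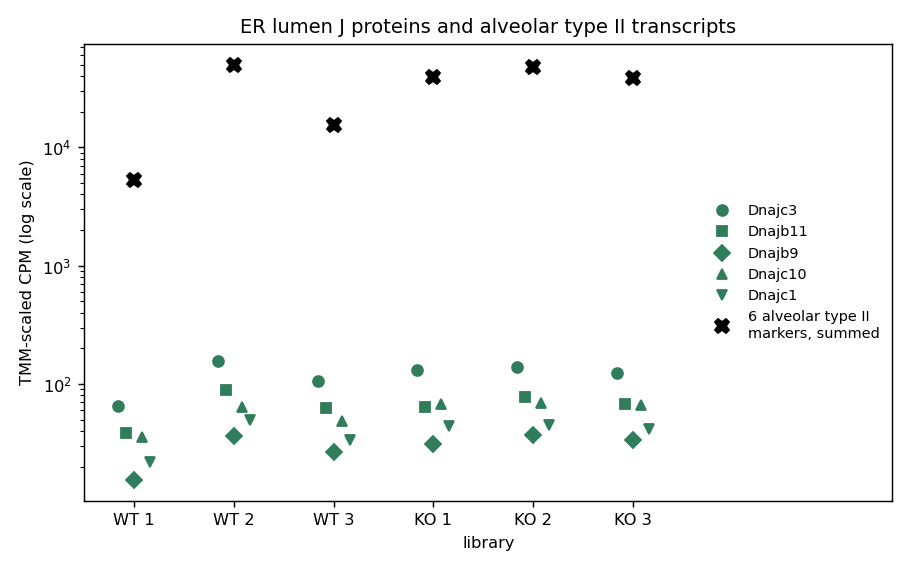
TMM-scaled CPM (vertical axis, log scale) of the 5 ER lumen members and of 6 alveolar type II markers summed, in each WT and KO library. The members and the markers are lowest in WT 1 and, within WT, highest in WT 2, at 64.9 and 155.9 CPM for Dnajc3, and vary little among the KO libraries.

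In the ER membrane group, which summed to 137 to 140 CPM in WT and 148 to 155 CPM in KO, the libraries were much closer together. Dnajb12, which serves ER-associated degradation, measured 15.3, 16.003 and 14.2 CPM in WT and 17.9, 17.7 and 17.6 CPM in KO. The groups did not overlap, with KO on top, by a log2 fold change of 0.22 (SE 0.12). Its relative Dnajb14 had a log2 fold change of 0.25 (SE 0.14), with 20.8 to 23.3 CPM in WT and 23.4 to 29.6 CPM in KO. Both had the same sign with the type II covariate, at 0.20 and 0.21, and the groups of both overlapped with scaling by total counts. Dnajc16 was the exception in its WT spread, with 10.3, 21.99 and 12.2 CPM in WT and 22.3, 25.01 and 20.04 CPM in KO, the library order of the lumen members. Its log2 fold change of 0.60 (SE 0.28) had an adjusted p of 0.507. It was 0.97 (adjusted p 0.0284) without WT 2, 0.38 (0.721) without WT 1 and 0.21 (0.692) with the type II covariate. Dnajc18 was at 0.22 (SE 0.15), and Dnajc14 was the 1 ER member below 0, at -0.10 (SE 0.13).

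The 7 mitochondrial members had a median of 0.13, with 3 below and 4 above 0. Dnajc11, which is tied to the organisation of the cristae, was at 18.8 to 20.95 CPM in WT and 16.6 to 17.9 CPM in KO (log2 fold change -0.21, SE 0.12). Its groups overlapped with scaling by total counts. For Dnajc19, a subunit of the motor that pulls proteins into the matrix, the log2 fold change was 0.25 (SE 0.21), and for its relative Dnajc15 it was -0.01 (SE 0.20). Dnajc4 and Dnajc28 had all KO libraries above all WT libraries, at 6.73 to 7.48 against 5.90 to 6.28 CPM and at 2.208 to 3.05 against 1.87 to 2.202 CPM. For Dnajc28 the gap between KO 3 and WT 2 was far smaller than the spread within either group, and the groups of both genes overlapped with scaling by total counts. Dnajc30 had overlapping groups, at 0.13 (SE 0.22). The summed mitochondrial level was 68.0 to 77.4 CPM in WT and 69.1 to 74.7 CPM in KO.

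Among the 6 members of vesicles, endosomes, cilia and other sites, cysteine string protein (Dnajc5), a chaperone of exocytosis, was at 70.2 to 78.2 CPM in WT and 67.8 to 76.2 CPM in KO, a log2 fold change of -0.04 (SE 0.12). The endosomal member Dnajc13 (RME-8) was at -0.08 (SE 0.15), Dnajc25 at 0.24 (SE 0.28) and Dnajc27 at 0.11 (SE 0.17), all with overlapping groups. Auxilin had too few reads for more than a wide estimate, 0.05 (SE 0.51). Dnajb13, a part of the radial spokes of motile cilia, measured 1.35, 1.76 and 1.92 CPM in WT and 2.41, 3.24 and 1.93 CPM in KO. KO 3 exceeded WT 3 by very little, so the separation of the groups hung on that library, and the log2 fold change was 0.60 (SE 0.31). The 7 markers of ciliated cells, none at 0, summed to 27.4 to 48.0 CPM in WT and 31.5 to 49.7 CPM in KO, and their part in the Dnajb13 values was not tested.

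The partners of the J proteins were taken from a list. It held HSP70 and HSP110 proteins, nucleotide exchange factors and other HSP70 cochaperones, J proteins with other symbols, and HSF1 and HSF2. Hspa14 on that list was not found by its symbol, which left 33 genes. Of 32 tested, 3 fell in KO and 0 rose at an adjusted p under 0.05 by edgeR, against 0.0752% and 0.0342% of all genes. At an unadjusted p under 0.05, 11 were lower and 3 higher (4.68% and 5.62% of all genes), and DESeq2 called 7 lower and 0 higher (0.64% and 0.569%). The 3 higher were Bag4, an HSP70 cochaperone, at a log2 fold change of 0.58 (SE 0.18), and the ER proteins Sil1, the exchange factor of BiP, at 0.73 (SE 0.31), and Sec63, a J protein of the translocon, at 0.47 (SE 0.20). Hsph1, the HSP110 that recharges HSP70 with ATP, was at 97.9, 86.2 and 90.9 CPM in WT and 17.3, 22.8 and 20.97 CPM in KO. The difference of 4.50-fold far exceeded the spread within groups (log2 fold change -2.17, SE 0.15, adjusted p 0.0099 by edgeR). Stip1 (HOP), which links HSP70 with HSP90, was at 86.2, 67.7 and 83.4 CPM in WT and 33.0, 29.1 and 32.1 CPM in KO (-1.33, SE 0.14, adjusted p 0.0276).

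Hspa1b, a stress-induced HSP70, was at 14.2, 22.2 and 19.9 CPM in WT and 1.29, 2.61 and 1.52 CPM in KO. The log2 fold change was -3.37 (SE 0.31) and the adjusted p by edgeR 0.0188. It shares nearly all of its sequence with Hspa1a, and uniquely aligned reads cannot be assigned well between them. Hspa8 itself, the constitutive partner of the cytosolic J proteins, measured 252, 214 and 291 CPM in WT and 123, 92.3 and 85.1 CPM in KO. Its KO libraries lay far below its WT libraries, with a log2 fold change of -1.33 (SE 0.20) and an adjusted p of 0.0858 by edgeR, side by side with -1.32 and 0.0524 for Dnaja1. With edgeR, no partner was left at an adjusted p under 0.05 when any KO library was omitted, while the log2 fold changes stayed at -2.29 to -2.09 for Hsph1, -1.39 to -1.31 for Stip1 and -3.75 to -3.2 for Hspa1b. Stip1 also lost its call without WT 3 (adjusted p 0.0838).

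The partner of the ER lumen members followed their library pattern. Hspa5 (BiP) was at 362, 1202 and 631 CPM in WT and 595, 809 and 717 CPM in KO, again lowest in WT 1 and highest in WT 2, and its log2 fold change was -0.05 (SE 0.41). Hspa9, the mitochondrial HSP70, was at 82.2, 77.6 and 80.6 CPM in WT and 65.5, 65.4 and 64.4 CPM in KO. The groups did not overlap (SD 2.33 CPM in WT and 0.61 CPM in KO), and the difference was small, at a log2 fold change of -0.30 (SE 0.11) and an adjusted p of 0.455 by edgeR. Transcripts of the regulator Hsf1 had a log2 fold change of -0.13 (SE 0.14), with 13.7 to 17.1 CPM in WT and 13.5 to 14.6 CPM in KO.

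**Figure D5:**
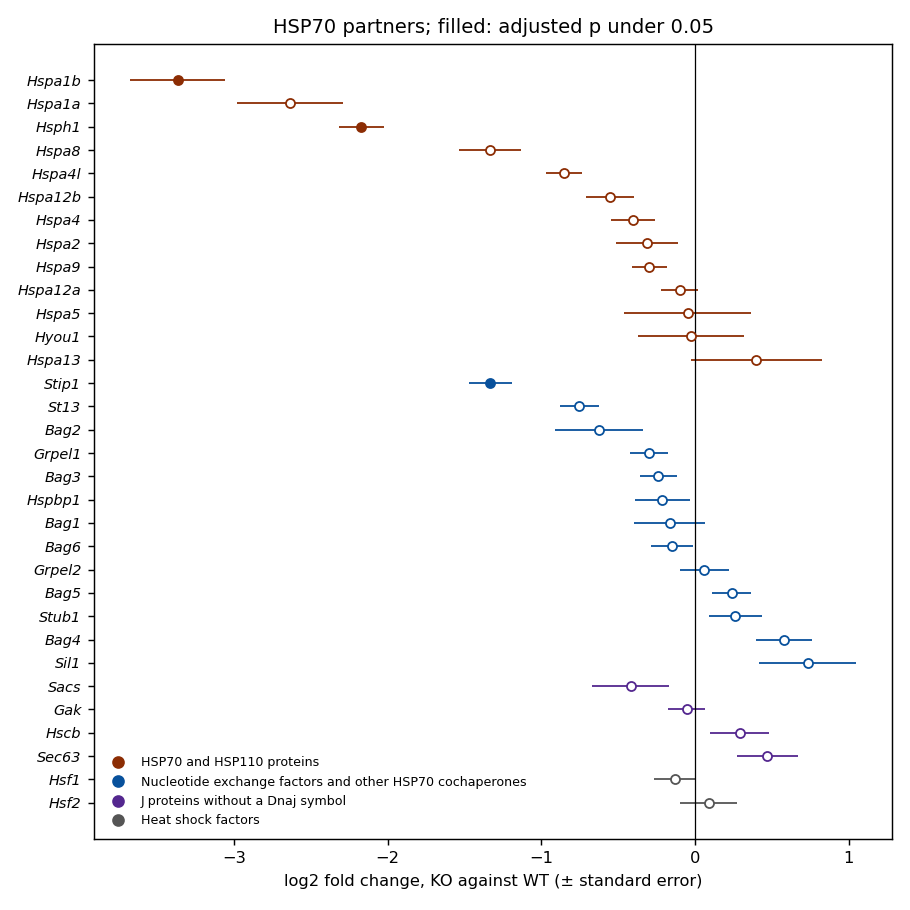
Log2 fold change of KO against WT (horizontal axis, with the standard error) of the 32 HSP70 partner genes tested, by class, with filled points for an adjusted p under 0.05. The filled points are Hspa1b at -3.37, Hsph1 at -2.17 and Stip1 at -1.33, and Hspa5 lies at -0.05 with a wide error.

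Some other marker lists had summed levels that did not overlap between the genotypes. The 8 immediate early genes, whose transcripts appear within minutes of cell handling or stimulation, none of them at 0, summed to 364, 334 and 335 CPM in WT and to 244, 241 and 308 CPM in KO. Jun held most of that sum, and its own groups overlapped. Of the 8 genes 0 passed an adjusted p of 0.05 by edgeR. At an unadjusted p under 0.05, 4 were lower (4.68% of all genes). In 3 of them, Fosb, Atf3 and Nr4a1, every KO library lay below every WT library (9.2% of all genes). Egr1 had a log2 fold change of 0.20. The 5 markers of smooth and cardiac muscle, none at 0, summed to 81.7 to 87.2 CPM in WT and 55.7 to 61.6 CPM in KO. Of these 0 passed the adjusted and 1 the unadjusted threshold, and Acta2 was the 1 gene whose groups did not overlap. The 6 B cell markers, none at 0, summed to 9.57 to 21.5 CPM in WT and 70.3 to 75.3 CPM in KO. Of these 2 passed an adjusted p of 0.05 by edgeR (0.0342% of all genes were called higher). All 6 were higher at an unadjusted p under 0.05 (5.62%), and all 6 had every KO library above every WT library (8.59%). The 5 T cell markers, none at 0, summed to 2.18 to 4.38 CPM in WT and 5.28 to 8.55 CPM in KO. Of these 0 passed the adjusted and 2 the unadjusted threshold, and 2 had groups that did not overlap. The part of each list in the values of Dnaja1, Dnajb1 and the other cytosolic members was not tested.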

How the data were processed

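Poly(A) RNA of 6 libraries was sequenced by the authors from stranded KAPA libraries. The deposited files hold raw read counts per gene. Per the file headers and the submitters' processing notes, bcl2fastq 2.18 and STAR 2.5.4b (mm10) preceded featureCounts of Subread 2.0.0, which counted uniquely aligned reads over exons by strand with the Ensembl release 84 annotation, so reads shared with near-identical copies (Dnaja1-ps, Dnajc19-ps) or overlapping genes were not counted. Exons shared with another gene on the same strand took 0.858 to 7.66% of the exonic bases of 4 members. Exons of 14 members overlapped a gene on the opposite strand. In Dnaja4 44.1% of the bases did so with Wdr61, and in Dnajb13 11.2% with Ucp2, which held 54274 summed counts. Whether reads were given to the wrong strand was not tested. Symbols were matched for 47310 of 47729 genes.

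Groups came from the labels. The main test was the quasi-likelihood test of edgeR 4.0.16 (TMM, filterByExpr, R 4.3.3) on 14625 genes. It was also run on simulated counts drawn independently for each gene. Such counts cannot show how the test behaves where many genes shift together in a library. DESeq2 1.42.0, limma-voom (3.58.1), other scalings, filters, the replicate number as a block and fits without each library were alternatives. An exact permutation test of 3 against 3 cannot go below p = 0.1 and was not used. No pair of libraries was alike within sampling noise. Precision is limited by counting error and by 3 libraries a group, with a common biological coefficient of variation of 0.256.

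The members and gene lists were chosen with earlier results of these data known. The rule named every member, gave library values for those with an unadjusted p under 0.05 and for the 2 highest per length in each subfamily, and gave partner values for those called and for Hspa8, Hspa5, Hspa9 and Hsf1. Values of other members were added where groups did not overlap or a spread stood out, chosen after they were seen. The type II covariate was the mean over 6 markers of log2(CPM + 1).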

Additional observations from a re-analysis of the deposited data

How the results depend on the processing

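The adjusted calls depended on the tool and on the libraries. Among the 39 members, 3 were called by DESeq2, 1 by limma-voom, 1 with RLE scaling, 1 with total counts, 2 without a filter and 1 with the type II covariate, and from 0 to 3 without 1 library. Dnaja1 was called without WT 1 (adjusted p 0.0472) and without WT 2 (0.0213), and Dnajb1 and Dnajc16 without WT 2 (0.0284 each). At an unadjusted p under 0.05 the number of members went from 5 to between 4 and 11 without 1 library, 11 being without WT 2, and the number with groups that did not overlap from 14 to between 15 and 24, or to 11 with RLE scaling and 7 with total counts. That count comes from no test, so the other tools, filters and the block give it no other value. Leaving out a library can only keep or add such members, so the rise without 1 library was fixed by the design. The HSP70 partners called went from 3 to 7 with DESeq2, 5 with RLE scaling, 5 with total counts, 6 without a filter, 5 with the covariate, and 0 to 10 without 1 library (0 without KO 1, KO 2 or KO 3, 10 without WT 2). Shares over all genes are given above for the main test and DESeq2 only. Counts under the other settings can therefore not be read as particular to these genes. Apart from the rise fixed by the design, the cause of these shifts was not tested.

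Median log2 fold changes moved as follows. Over all members the main value of 0.05 became 0.013 with DESeq2, 0.017 with limma-voom, 0.018 with RLE scaling, -0.11 with total counts, -0.0055 with the covariate and 0.010 at a minimum of 600 summed counts, and ranged from -0.036 to 0.086 without 1 library. For subfamily A total counts gave -0.50. Subfamily B went to -0.16 with total counts and -0.16 with the covariate, and from -0.21 to 0.012 without 1 library. Subfamily C went to 0.086 with DESeq2, 0.090 with RLE scaling, -0.059 with total counts and 0.14 with the covariate, and from 0.022 to 0.12 without 1 library. The cytosolic median was -0.39 with total counts and -0.32 to -0.11 without 1 library. The ER median of 0.26 was 0.12 with total counts, 0.069 with the covariate and 0.16 to 0.50 without 1 library.

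Whether the replicate numbers pair the libraries cannot be told, since deviations from a mean of 3 libraries are tied to each other. Correlations of these deviations between same-numbered libraries were -0.10, 0.29 and 0.01. They were 0.26 for WT 1 with KO 3 and 0.25 for WT 3 with KO 1, and the remaining pairs lay between -0.24 and -0.08. With the replicate block 0 members were called, 6 had an unadjusted p under 0.05 (4 lower and 2 higher), 0 partners were called and the median over all members was 0.021.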
